A study of Mus musculus with 2 samples.

Results

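GABA-A receptor subunit transcripts were followed across the cell clusters of the mouse brainstem and compared between a wildtype mouse and a mouse model of Dravet Syndrome. The members are 7 genes taken from a fixed list, Gabra2, Gabra3, Gabra5, Gabrb1, Gabrb2, Gabrg1 and Gabrd, out of 19 genes of the GABA-A receptor family and 25556 genes in all that the counts hold. The list was drawn up with earlier results of these data known. Single-nucleus RNA sequencing (snRNA-seq) was performed on the dissected, flash-frozen brainstem of 1 wildtype (WT) mouse and 1 heterozygous (HET) littermate carrying the Scn1a A1783V knock-in. Both mice were female, untreated, on a C57Bl6 background and 41 days old. Scn1a encodes a voltage-gated sodium channel alpha subunit, and the missense allele, which the labels describe as loss-of-function, came from crossing Scn1a floxed males with Sox2-Cre females. Sox2-Cre acts in the early embryo, so the allele is not restricted to a brain cell type.

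GABA-A receptors are pentameric chloride channels opened by the transmitter GABA. The common brain receptor is built from alpha, beta and gamma subunits, and the alpha subunit sets much of the receptor's benzodiazepine pharmacology and placement. The alpha2, alpha3 and alpha5 subunits are encoded by Gabra2, Gabra3 and Gabra5, and the beta1 and beta2 subunits by Gabrb1 and Gabrb2. Gabrg1 encodes gamma1, a gamma subunit of restricted distribution. Gabrd encodes delta, which replaces gamma in extrasynaptic receptors that carry tonic current, as in cerebellar granule cells with alpha6. Astrocytes also carry functional GABA-A receptors. In the brainstem these receptors act beside glycine receptors on neurons of respiratory, motor and arousal circuits.

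The 2 libraries held 18281 nuclei. The WT library had 9259 nuclei and 70301390 unique molecular identifiers (UMIs, counts of captured RNA molecules), and the HET library had 9022 nuclei and 66176778 UMIs. Median depth was 5456 UMIs per nucleus in WT and 5646 in HET, and 23 cell barcodes occurred in both libraries. The median share of ribosomal protein transcripts was 0.696% in WT and 0.407% in HET. Nuclei carried the authors' 16 cluster names, 9 of them neuronal, and 34 numbered subclusters. Levels are given as UMIs of a gene per 1000000 UMIs of the same nuclei (CPM). Scn1a was at 380.2 CPM in WT and 420.4 CPM in HET, which cannot check a missense genotype. With 1 library per genotype there is no replicate check and no test between genotypes, so every interval below is a 95% interval for counting error only. For the same reason genotype cannot be told apart from animal, dissection or library.

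Cluster sizes differed between the libraries, and several cluster names were only partly borne out by their markers. Genotypes were set side by side only in the 12 clusters that reached 30 nuclei in WT as well as in HET. Clusters neuron.6, neuron.8, neuron.9 and epend.2 had 120, 44, 35 and 108 nuclei in WT and 5, 9, 2 and 6 in HET, so only their WT levels are described. The astrocyte and oligodendrocyte names were matched by the deposited reference label in 1288 of 1318 and 4131 of 4149 nuclei. In the cluster named micro the reference label matched in 108 of 405 nuclei, and its subcluster 18 held neuronal Rbfox3 at 429 CPM and Snap25 at 658 CPM against microglial Cx3cr1 at 20 CPM. Neuron.5 is called granule-like here, from Fat2 at 183 CPM, Cbln3 at 66.9 CPM and Neurod1 at 65.5 CPM, and neuron.7 serotonergic-like, from Tph2 at 1298 CPM and Slc6a4 at 709 CPM. Neuron.8 expressed the cholinergic genes Chat at 158.5 CPM and Slc5a7 at 243 CPM.

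The members sit at 5 separate places in the genome (mouse build GRCm38). Gabrg1 (chr5:70751047-70842617, minus strand), Gabra2 (chr5:70957597-71095849, minus strand) and Gabrb1 (chr5:71658113-72149037, plus strand) lie in that order on chromosome 5, with Gabra4 next to Gabrb1. Gabra5 lies at chr7:57407672-57510059 on the minus strand. Whether the counting used strand is not given in the sources used here, so counts of genes that overlap another gene on the opposite strand, Gabra5 among them, carry that uncertainty. Gabrb2 lies at chr11:42419757-42629028 on the plus strand, Gabra3 at chrX:72432681-72656848 on the minus strand, and Gabrd at chr4:155384980-155398112 on the minus strand. Gene spans ran from 13.13 kb for Gabrd to 490.9 kb for Gabrb1. These coordinates cover each whole gene, exons and introns together.

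Promoter windows from RefSeq (GRCm38.p6) were matched for 6 of the 7 members. The 3 below are shown because Gabra2 and Gabrg1 are chromosome 5 neighbours that differ in level, and much of the genotype comparison concerns Gabrb2. Each is the 250 bases upstream of an annotated start, read 5′ to 3′ on the gene's strand, with matches to a GC box (GGGCGG) or a TATA box (TATAAA), on either strand, in capitals. The Gabra2 window is chr5:71095850-71096099, the Gabrg1 window chr5:70842618-70842867 and the Gabrb2 window, at the first of its annotated starts, chr11:42420190-42420439.
Gabra2: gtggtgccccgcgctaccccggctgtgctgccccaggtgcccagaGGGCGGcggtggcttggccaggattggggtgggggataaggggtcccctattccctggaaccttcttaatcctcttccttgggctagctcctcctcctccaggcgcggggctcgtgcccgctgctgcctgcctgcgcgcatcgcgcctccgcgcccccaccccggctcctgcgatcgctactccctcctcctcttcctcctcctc
Gabrg1: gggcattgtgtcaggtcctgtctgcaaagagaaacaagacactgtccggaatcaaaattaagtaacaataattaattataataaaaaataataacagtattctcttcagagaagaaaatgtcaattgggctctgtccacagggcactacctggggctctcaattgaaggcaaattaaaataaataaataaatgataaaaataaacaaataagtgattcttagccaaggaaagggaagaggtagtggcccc
Gabrb2: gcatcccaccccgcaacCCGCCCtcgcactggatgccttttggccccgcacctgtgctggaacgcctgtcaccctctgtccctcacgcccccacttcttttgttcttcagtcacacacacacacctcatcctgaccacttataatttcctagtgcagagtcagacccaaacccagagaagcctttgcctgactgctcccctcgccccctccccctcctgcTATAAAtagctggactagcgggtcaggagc
The Gabra2 window was 70.0% G or C with 18 CpG dinucleotides and 1 GC box. The Gabrg1 window was 35.6% G or C with 1 CpG and none of the 5 motifs searched. The Gabrb2 window was 58.8% G or C and held 1 GC box and 1 TATA box. Over 32851 RefSeq promoter windows of the same length the median was 52.4% G or C. The GC box was in 32.7% of them, the TATA box in 12.4%, TTGGCA in 12.3%, CACGTG in 6.0% and TGACGTCA in 1.5%, each counted on both strands. A match is a description of letters and not of a bound site.

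Across all nuclei, levels between genes were compared per kb of gene span, since long genes can give more nuclear RNA to capture where introns are counted. Whether introns were counted is not given in the sources used here, so the order below holds for this scale only. Exon lengths stand in other proportions, at 7.64 kb for Gabra2, 13.84 kb for Gabrb1 and 3.924 kb for Gabra3. Levels per kb of exon were not compared. Per kb of span Gabra2 stood highest of the 7, at 1.10 CPM per kb in WT and 1.28 in HET, with Gabrb1 next at 0.966 and 1.04. Gabrb2 was at 0.600 CPM per kb in WT, next to Gabra5 at 0.612, and at 0.904 in HET, above Gabra5 at 0.583. Gabra3 was at 0.50 and 0.533, Gabrg1 at 0.247 and 0.267, and Gabrd at 0.141 and 0.261 CPM per kb.

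The members divided the brainstem between them (plot of levels by cluster). Gabrb1 and Gabra2 were shared by neurons and astrocytes, Gabra3, Gabra5 and Gabrb2 were mainly neuronal, and Gabrg1 and Gabrd were each high in few clusters. Neuronal clusters, which held 84.3% of WT UMIs and 80.5% of HET UMIs, gave 97.4% of Gabrb2 UMIs in WT and 95.5% in HET, and 95.6% and 95.1% of Gabra5 UMIs. For Gabrb1 they gave 82.4% and 75.1%, and for Gabra2 85.9% and 82.5%. Because clusters were built from the same counts, these contrasts between clusters are descriptions.

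**Figure D1:**
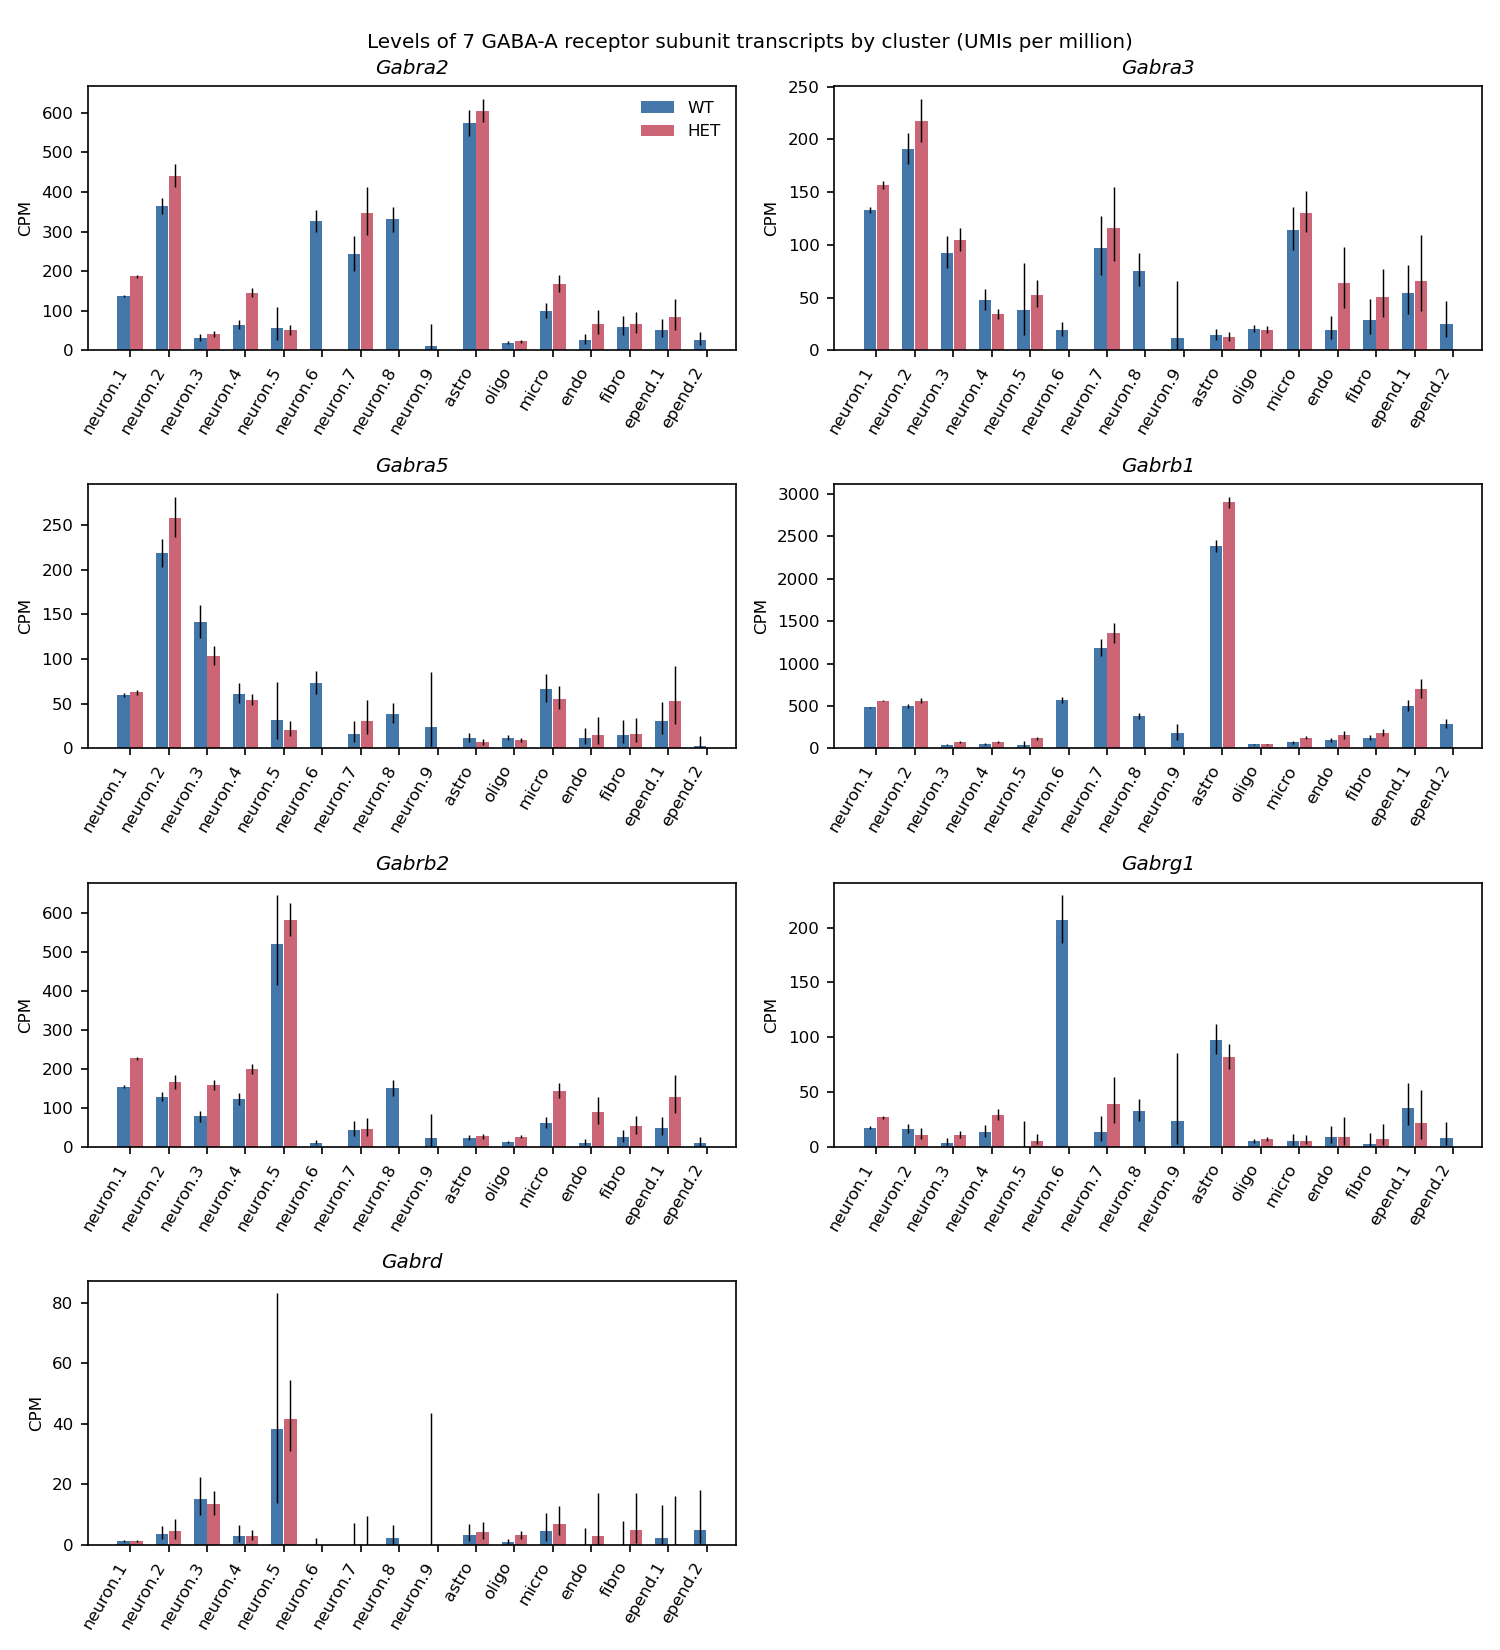
Level of each of the 7 subunit transcripts (CPM, y axis from 0) in each cluster (x axis), with WT and HET bars and exact Poisson 95% intervals that cover counting error only. Gabrb1 peaked in astro at 2387 CPM in WT and 2900 in HET, Gabrb2 in neuron.5 at 521.4 and 584.2, and Gabrg1 in the WT nuclei of neuron.6 at 206.9.

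Astrocytes carried Gabrb1, Gabra2 and Gabrg1, a beta, an alpha and a gamma subunit, all from the chromosome 5 group. Gabrb1 was at 2387 CPM in WT astrocytes and 2900 CPM in HET astrocytes, against 484.9 and 561.3 CPM in neuron.1, the largest neuronal cluster. A Gabrb1 UMI was found in 96.4% of WT and 99.0% of HET astrocyte nuclei. In oligodendrocytes, whose nuclei serve here as the background for free RNA, the shares were 10.3% and 14.4% over nuclei on which both labels matched. Median depths were 2963 and 3318 UMIs in astrocytes. After thinning every nucleus to 1000 UMIs the astrocyte shares were 83.1% and 88.4% and the oligodendrocyte shares 3.95% and 4.88%.

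Gabra2 in astrocytes was at 574.7 CPM in WT and 605.6 CPM in HET, the highest of any compared cluster. The astrocyte levels of Gabrg1 were 97.4 and 81.8 CPM. Among nuclei labelled astrocytes by both labels, 97.3% of the WT nuclei with a Gabrg1 UMI also had a Gabrb1 UMI, and 98.8% of the HET nuclei did, close to the 96.6% and 99.0% of all such astrocytes with Gabrb1. Gabra3 (14.2 and 12.3 CPM), Gabra5 (11.4 and 6.92 CPM) and Gabrb2 (22.7 and 26.5 CPM) in astrocytes were near their levels in oligodendrocytes, which were 20.4 and 19.7, 11.98 and 9.38, and 12.7 and 26.1 CPM. The 3 astrocyte subclusters differed among themselves. Gabrb1 was at 2891 CPM in subcluster 4, 2494 CPM in subcluster 19 and 1495 CPM in subcluster 26, both libraries summed, and Gabrg1 at 104.7, 30.7 and 43.5 CPM. Subcluster 26 also held the oligodendrocyte gene Mag at 531 CPM beside the astrocyte glutamate transporter Slc1a2 at 1647 CPM.

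Among neurons the alpha subunits were highest in neuron.2. Gabra5 was at 218.4 CPM in WT and 258 CPM in HET there, and within it subcluster 14 reached 330.8 CPM, the highest of the 34 subclusters. Gabra2 was at 363.8 and 441.4 CPM in neuron.2 and Gabra3 at 190.8 and 217.2 CPM. Neuron.3 held Gabra5 at 140.9 CPM in WT and 103.7 in HET and the lowest Gabra2 of the compared neuronal clusters, at 31.6 and 40.3 CPM. Neuron.1 held less Gabra5 than neuron.2 or neuron.3, at 59.6 and 62.6 CPM.

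Gabrb2 and Gabrd were highest in the granule-like cluster neuron.5. Gabrb2 was at 521.4 CPM in WT (interval 414.7 to 647.2) and 584.2 CPM in HET (543 to 627.6), and Gabra6, the granule cell alpha subunit, at 356.1 and 379 CPM. Gabrd was at 38.2 CPM in WT (6 UMIs) and 41.5 CPM in HET (53 UMIs), and no other compared cluster passed 15.2 CPM in either library. Gabrd was second highest in neuron.3, at 15.2 and 13.5 CPM, and neuron.1 held 1.18 and 1.21 CPM. Outside these clusters Gabrd rested on few molecules, since the whole series held 130 UMIs in WT and 227 in HET. In HET, neuron.5 gave 23.3% of all Gabrd UMIs, and in WT 4.62%, beside its nuclei of 332 in HET and 42 in WT.

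Gabrg1 had a different pattern from the common neuronal subunits. In neuron.6, which was nearly absent from HET and expressed neuronal Slc17a6 (118 CPM) and Calb1 (267 CPM) together with Slc1a2 (602 CPM) and the cilium gene Dnah11 (371 CPM), Gabrg1 was at 206.9 CPM in WT (interval 185.6 to 229.8). A Gabrg1 UMI was present in 86.7% of the 120 WT nuclei, and in 18.3% after thinning to 1000 UMIs, against 1.47% and 0.429% of WT oligodendrocyte nuclei. The median depth of these nuclei was 12413 UMIs, and that of the oligodendrocytes 2738. The same nuclei held Gabra2 at 326.4, Gabrb1 at 572.1 and Gabra5 at 72.9 CPM but Gabrb2 at only 10.2 CPM and no Gabrd UMI, which allows up to 2.21 CPM. Neuron.6 gave 21.8% of all WT Gabrg1 UMIs, from 2.38% of WT UMIs. The HET library held 7 Gabrg1 UMIs in its 5 neuron.6 nuclei.

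The serotonergic-like cluster neuron.7 held more Gabrb1 and less Gabrb2 than the other compared neuronal clusters. Gabrb1 was at 1186 CPM in WT and 1360 CPM in HET, above every other compared neuronal cluster, while Gabrb2 was at 43.3 and 46.4 CPM and Gabrd had no UMI in either library. Gabra2 was at 242.3 and 347.8 CPM, and Gabra3 at 96.5 and 115.9 CPM. Gabre and Gabrq, which encode the rarer epsilon and theta subunits, were at 21.7 and 15.5 CPM and at 45.3 and 41.2 CPM there. Over all nuclei Gabre was at 1.10 and 0.922 CPM and Gabrq at 2.89 and 3.46 CPM. In the cholinergic-like WT nuclei of neuron.8, Gabra2 was at 330.6 CPM, Gabrb1 at 377.5 CPM and Gabrb2 at 149.9 CPM.

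**Figure D2:**
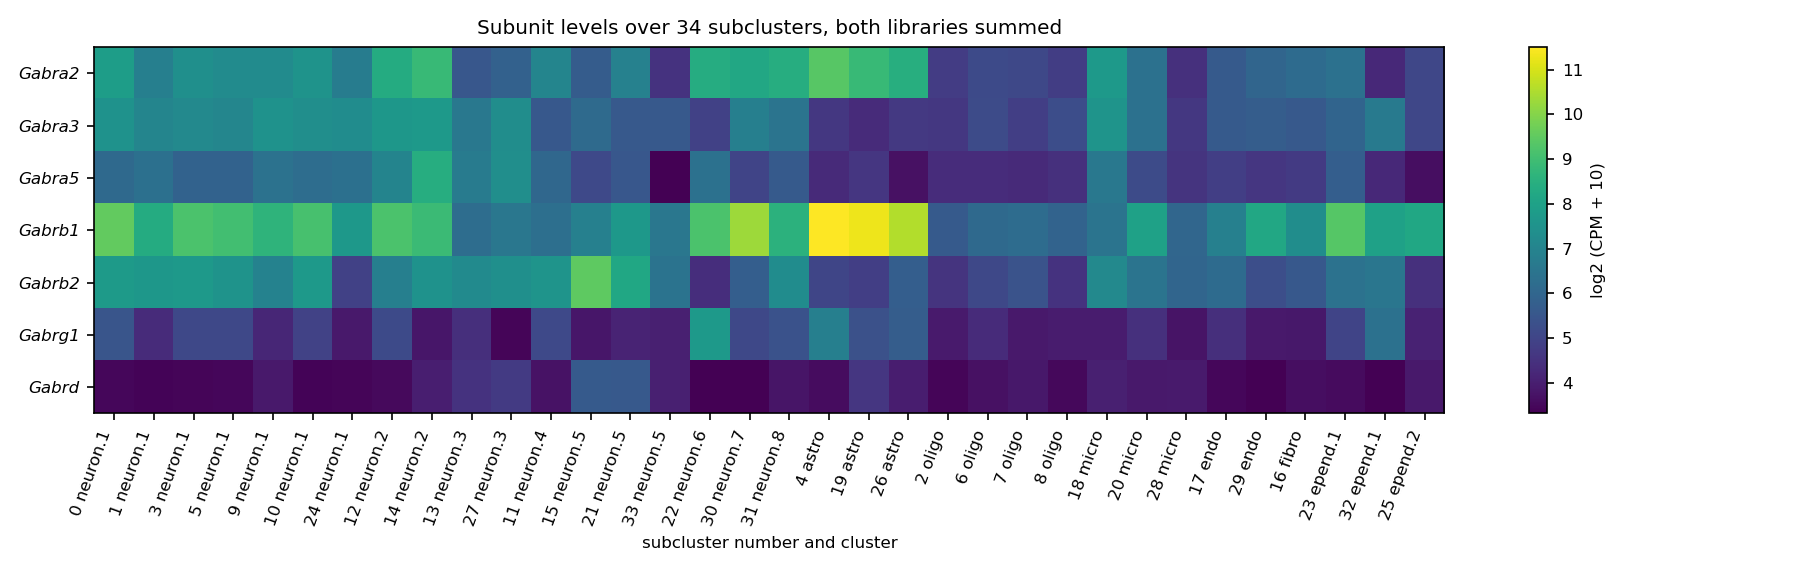
Level of each subunit (rows, colour scale in log2 of CPM plus 10) in each of 34 subclusters (columns, numbered with the cluster that holds most of their nuclei), both libraries summed. Gabrb1 was brightest in the 3 astro subclusters (2891 CPM in subcluster 4), Gabrb2 in subcluster 15 of neuron.5 (706.7 CPM) and Gabrg1 in subcluster 22 of neuron.6 (206.3 CPM).

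Likeness between genes was measured as Pearson's r of log2(CPM + 10) over the 34 subclusters, for 13846 genes, as a description, since subclusters share 2 libraries, their depth and their free RNA. Gabrb2 ranked Kcnip4 first (r = 0.84), and Neurl1a was the third (0.80). Gabrd was most like Exph5 (0.85) and Gabra6 (0.79). Gabra2 was most like Gm12239 (0.85), an antisense transcript gene of another chromosome, and its likeness to Gabrb1 was 0.79, with 5 genes more alike. The genes most like Gabra5 were Adamts17 (0.93) and Glra1 (0.90), a glycine receptor alpha subunit. Gabra3 had Kcnip1 first (0.93), Gabrb1 had Gria1 (0.83), an AMPA receptor subunit, and Gabrg1 had Adgra1 (0.81). With a pseudocount of 1 in place of 10, Gabra6 left the 3 genes most like Gabrd.

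To ask whether subunit levels differed with the Scn1a genotype, the ratio of HET to WT was taken over all nuclei. Gabrb2 was at 125.6 CPM in WT (8828 UMIs) and 189.2 CPM in HET (12519 UMIs), a log2 ratio of 0.59 (0.55 to 0.63). Gabrd went with it, from 1.85 CPM (130 UMIs) to 3.43 CPM (227 UMIs), a log2 ratio of 0.89 (0.57 to 1.21). The Gabrd ratio was 0.41 with the same cluster weights in both libraries. In the clusters with most of its UMIs it was 0.03 in neuron.1, −0.17 in neuron.3 and 0.12 in neuron.5, each with an interval across 0. Neuron.5, where Gabrd was highest, had 42 nuclei in WT and 332 in HET. Gabrb2 and Gabrd were the 2 of 7 members at or past the size rule of 0.5 on the log2 scale, where 12.8% of 21985 genes with at least 20 UMIs were that much higher in HET. No member was that much lower, beside 19.1% of all genes. All 7 members had at least 20 UMIs.

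Gabra2 was at 152.3 and 177.1 CPM (log2 ratio 0.22, 0.18 to 0.26), Gabrb1 at 474.2 and 510.5 CPM (0.11, 0.08 to 0.13), Gabra3 at 112 and 119.6 CPM (0.09, 0.05 to 0.14) and Gabrg1 at 22.6 and 24.4 CPM (0.11, 0.01 to 0.21). Gabra5, at 62.6 and 59.7 CPM, was the 1 member lower in HET (−0.07, −0.13 to −0.01), by a ratio that other scalings turned to 0.03. The median log2 ratio of the members was 0.11, beside −0.09 over all genes tested and 0.11 over the 2725 genes that span at least 100 kb. Among genes with at least 200 UMIs, 6.18% had a larger log2 ratio than Gabrb2 and 3.0% a larger one than Gabrd.

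Gabrb2 was higher in HET in 12 of 12 clusters and in 26 of 26 subclusters in which it had enough UMIs (plot of ratios by cluster). In 9 of the clusters and 18 of the subclusters the counting interval lay above 0. Of the 4544 genes with at least 20 UMIs in all 12 clusters, 3.63% were higher in HET in every cluster, and of the 3522 genes compared in nearly all subclusters 0.88% were higher in every compared subcluster. The ratio ran from 0.10 (−0.89 to 1.06) in neuron.7 to 3.32 (2.03 to 4.88) in endo. Endo held 6 and 29 Gabrb2 UMIs, and 5 and 5 on nuclei where both labels matched. Labels matched in 108 of 405 micro and 40 of 266 fibro nuclei. Neuronal markers were also higher in HET oligodendrocytes, and their part in the Gabrb2 ratio was not tested. By subcluster the lowest Gabrb2 ratio was 0.02 in astrocyte subcluster 4 and the highest 4.81 in subcluster 21, with 2 Gabrb2 UMIs in WT and 147 in HET. That subcluster held different cells in each library, with 35 of its WT nuclei in neuron.9 and 46 of its HET nuclei in neuron.5. Limited to nuclei of the cluster that holds most of a subcluster, a choice made after the data were seen, Gabrb2 was higher in HET in 24 of 25 subclusters, with the interval above 0 in 17. The exception was astrocyte subcluster 4, with 32 and 44 UMIs and equal levels. Neuron.3, at 77.7 CPM in WT and 158.6 in HET, had a ratio of 1.03 (0.75 to 1.32), and neuron.4, at 121.5 and 200.2 CPM, 0.72 (0.52 to 0.93). In the granule-like cluster, where its level was highest, the ratio was 0.16 (−0.17 to 0.51).

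**Figure D3:**
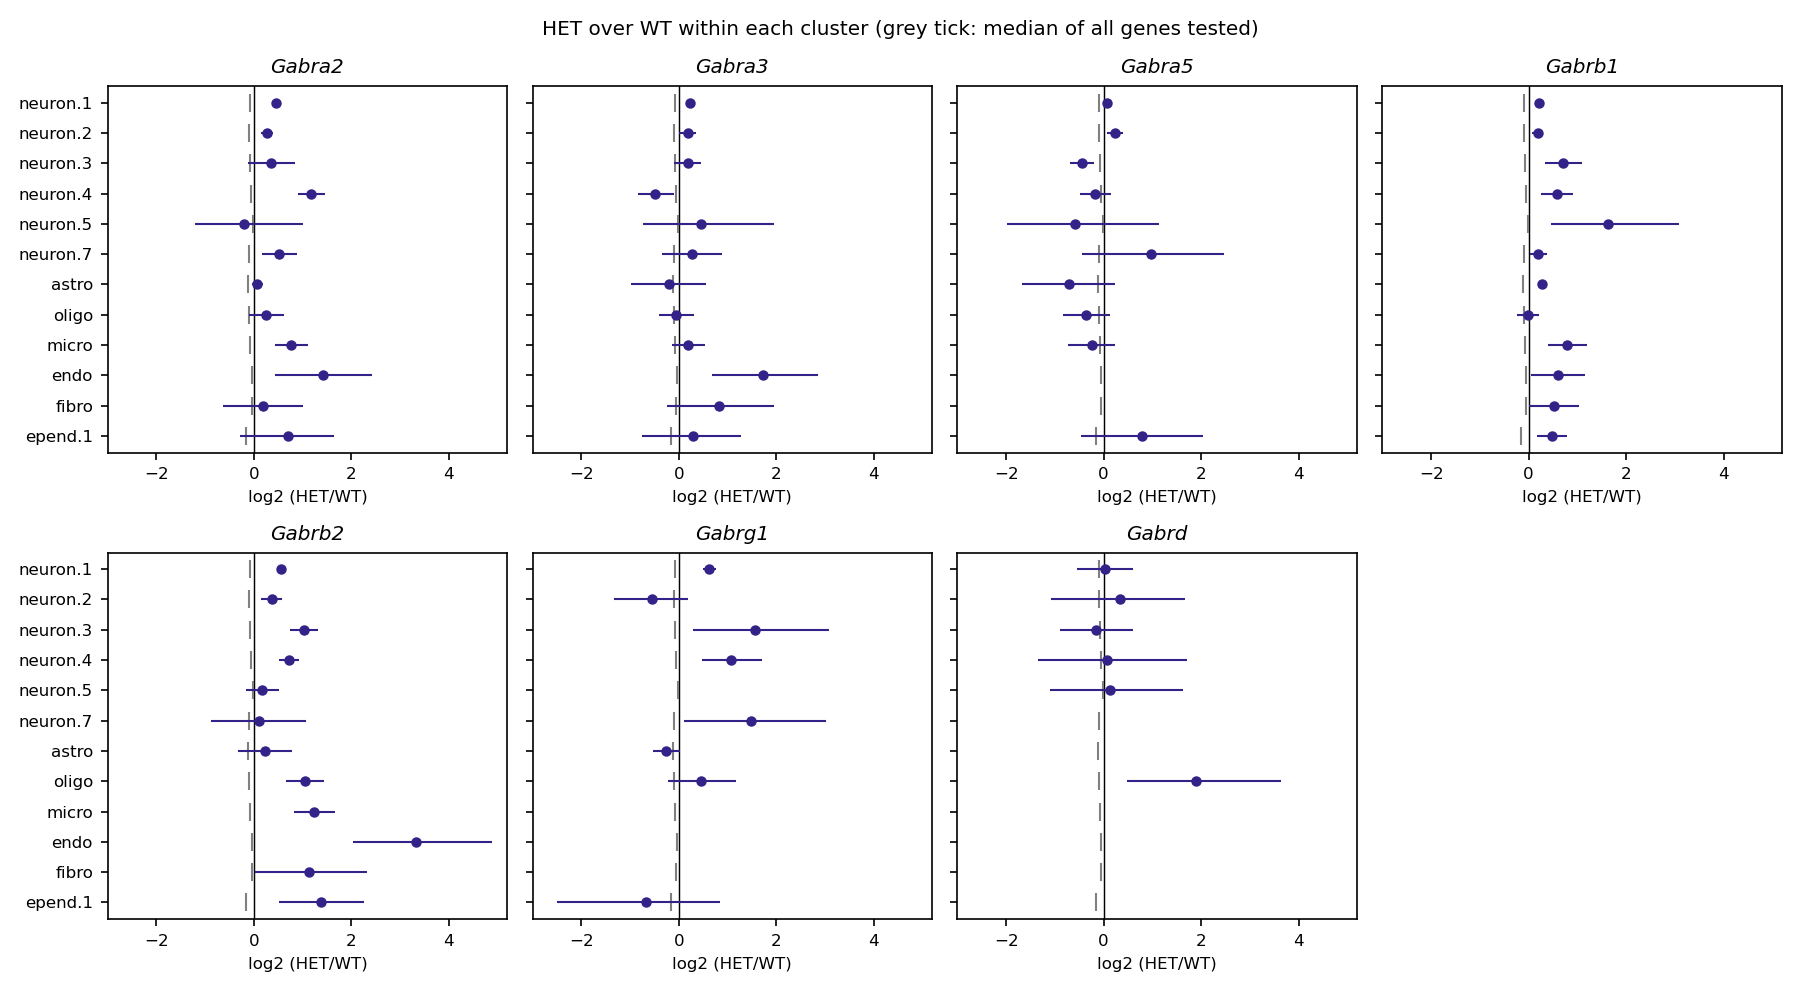
The log2 ratio of HET to WT (x axis) for each subunit in each of 12 compared clusters (y axis), with 95% counting intervals and a grey tick at the median ratio of all genes tested in that cluster. Every Gabrb2 point lies above 0, from 0.10 in neuron.7 to 3.32 in endo, while Gabra5 points lie on both sides.

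Gabra2 was higher in HET in 11 of 12 clusters, with the interval above 0 in 6, and Gabrb1 in 11 of 12, with the interval above 0 in all 11. The exceptions were Gabra2 in neuron.5 (−0.19, −1.21 to 1.00) and Gabrb1 in the oligodendrocyte cluster (−0.02, −0.23 to 0.20). The share of all genes higher in 11 of 12 clusters was not computed. The median ratio of all genes tested ran from −0.16 in epend.1 to −0.02 in neuron.5. On endo nuclei where both labels matched, Gabrb1 was at −0.31 (−1.73 to 0.90), from 32 and 7 UMIs. Gabra2 stood at 64.7 CPM in WT and 145.9 in HET in neuron.4, a ratio of 1.17 (0.90 to 1.45). Gabra3 was higher in 9 of 12 clusters and below 0 with its interval in neuron.4, at 47.4 and 34.04 CPM (−0.48, −0.85 to −0.10). Gabra5 was higher in 4 of the 10 clusters with enough UMIs, with its interval above 0 in neuron.2 (0.24, 0.08 to 0.40) and below 0 in neuron.3 (−0.44, −0.68 to −0.20). Gabrg1 was higher in 5 of 8 clusters, among them neuron.4 at 13.8 and 29.0 CPM (1.07, 0.48 to 1.71). Gabrd was higher in 5 of 6, with its interval above 0 only in the oligodendrocyte cluster, from 5 and 25 UMIs.

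In neuron.1, with 5032 WT and 4079 HET nuclei, all 7 members had a ratio above 0. So had 8490 of the 20473 genes tested there, and 1981 of the 2704 genes that span at least 100 kb. Gabrb2 was at 154.1 and 227.3 CPM, a log2 ratio of 0.56 (0.52 to 0.60), and Gabrg1 at 17.3 and 26.7 CPM, a ratio of 0.63 (0.49 to 0.76). Gabrb2 and Gabrg1 were the 2 members past the size rule, where 11.7% of 20473 genes were. No member was past it downward, where 17.9% of genes were. Gabra2 followed at 136.7 and 187.1 CPM (0.45, 0.41 to 0.50). Gabra3 (0.24), Gabrb1 (0.21), Gabra5 (0.07) and Gabrd (0.03) had smaller ratios, the last 2 with intervals that reached below 0. A Gabrb2 UMI was found in 52.9% of WT and 68.0% of HET nuclei, and in 12.1% and 18.4% after thinning to 1000 UMIs. In oligodendrocytes, at a median depth of 2738 and 2853.5 UMIs against 7752.5 and 8509 in neuron.1, the shares were 3.17% and 6.89%, or 1.05% and 2.26% after thinning. The median of the members was 0.24, that of all genes −0.09 and that of genes over 100 kb 0.12. Of the 4 neuronal markers in neuron.1, Rbfox3 (0.22), Snap25 (0.16) and Syt1 (0.16) were also higher in HET, by less than Gabrb2, and Meg3 was lower (−0.05).

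The subclusters of neuron.1 were unequally shared, and this bore on Gabrb1 more than on Gabrb2 (plot of neuron.1 subclusters). Subcluster 0 held 1288 WT and 1576 HET nuclei, and subcluster 1 held 1714 WT and 511 HET nuclei. Over both libraries Gabrb1 was at 736 CPM in subcluster 0 and 317 CPM in subcluster 1, Gabra2 at 224 and 106, and Gabrg1 at 34 and 10, whereas Gabrb2 was at 208 and 189 CPM. Each of the 7 subclusters was then weighted alike in both libraries, by its number of nuclei over both libraries together. This choice was made after the data were seen. With these weights the log2 ratio of Gabrb1 became 0.04, that of Gabrg1 0.41 and that of Gabra2 0.31. The Gabrb2 ratio stayed 0.56, at 154.4 and 227.4 CPM.

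Within the subclusters of neuron.1, Gabrb2 was higher in HET in all 7, from 0.49 to 3.12, and Gabra2 in all 7, from 0.22 to 1.10. Of the 14638 genes with at least 200 UMIs, 11.1% were higher in all 7. The highest Gabrb2 ratio came from subcluster 24, with 4 UMIs in WT and 22 in HET, and the remaining 6 ran from 0.49 to 0.88. Gabrb1 was lower in HET in subcluster 1, at 336.9 and 270.1 CPM (−0.32, −0.40 to −0.24), and higher in the other 6.

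**Figure D4:**
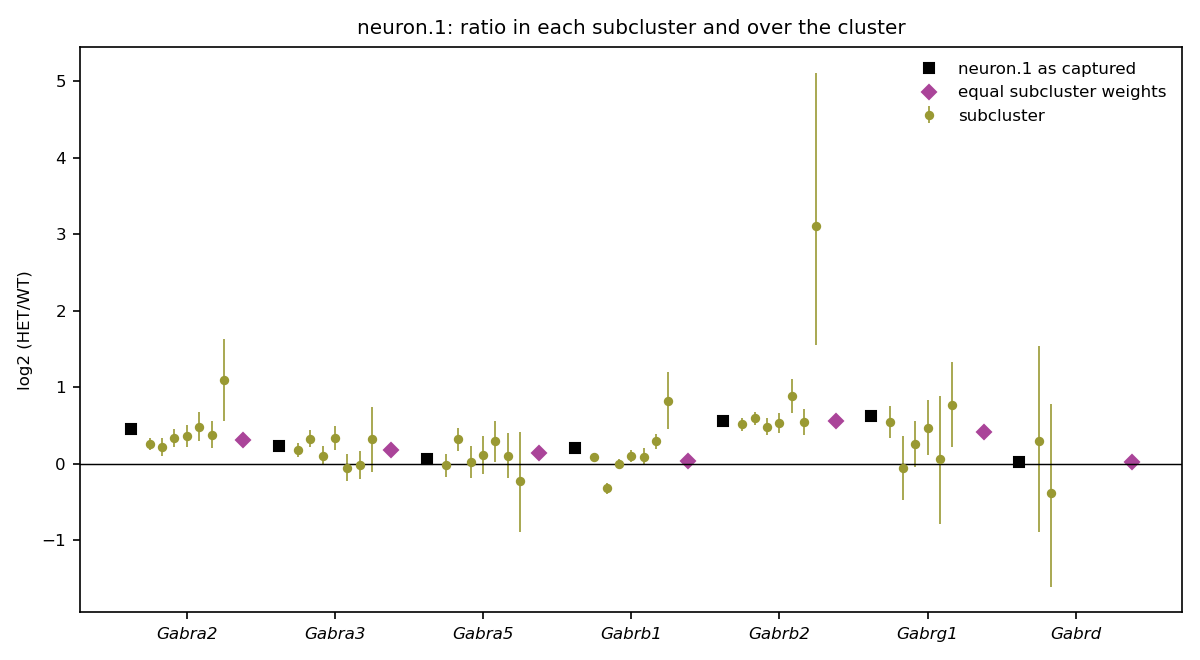
The log2 ratio of HET to WT (y axis) for each subunit (x axis) in neuron.1. Circles are subclusters with at least 20 UMIs, with 95% counting intervals. Squares are neuron.1 as captured, and diamonds neuron.1 with the same subcluster weights in both libraries. For Gabrb2 the square and the diamond both stand at 0.56, and for Gabrb1 they stand at 0.21 and 0.04.

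Neuronal nuclei were also split by transmitter. Nuclei were called glutamatergic with at least 3 UMIs of vesicular glutamate transporters and 3 times more of these than of Slc32a1, Gad1, Gad2 and Slc6a5, and inhibitory by the reverse. This gave 550 WT and 766 HET glutamatergic nuclei and 1922 and 1525 inhibitory nuclei. Of 5969 non-neuronal nuclei, 9 met the glutamatergic rule and 21 the inhibitory rule. Gabrb2 was higher in HET in both classes, by 0.59 (0.49 to 0.69) in glutamatergic nuclei at 147.1 and 221.8 CPM, and by 0.53 (0.46 to 0.59) in inhibitory nuclei at 156 and 225.1 CPM. Gabra2 was at 165.7 and 156.9 CPM in glutamatergic nuclei (−0.08, −0.18 to 0.03) and at 112.2 and 154.6 CPM in inhibitory nuclei (0.46, 0.38 to 0.54).

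The glutamatergic class drew on different clusters in each library, so its ratios were also taken without neuron.6 and in nuclei of neuron.1 alone, choices made after the data were seen. It held 25 WT and 0 HET nuclei of neuron.6, 57 and 154 of neuron.4, 14 and 60 of neuron.3 and 2 and 27 of neuron.5, beside 385 and 472 of neuron.1. Gabrg1 was at 25.6 and 18.4 CPM over the class (−0.48, −0.77 to −0.19) but at 14.7 and 18.4 CPM without neuron.6 (0.32, −0.02 to 0.67) and at 17.7 and 20.5 CPM in nuclei of neuron.1 alone (0.21, −0.18 to 0.61). Gabrb1 went from −0.11 over the class to 0.14 (0.07 to 0.22) in nuclei of neuron.1, and Gabra5 from −0.20 to 0.00 (−0.20 to 0.20). Gabrb2 was 0.50 (0.38 to 0.62) in the glutamatergic nuclei of neuron.1 and 0.54 (0.47 to 0.61) in its inhibitory nuclei, and Gabra2 was 0.28 (0.15 to 0.42) and 0.52 (0.44 to 0.60). The inhibitory class came mostly from neuron.1, with 1813 of 1922 WT and 1377 of 1525 HET nuclei. Gabrg1 was at 14.8 and 20.9 CPM in it (0.50, 0.28 to 0.71).

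Inhibitory nuclei with at least 3 UMIs of Slc6a5, the glycine transporter of glycinergic terminals, numbered 755 in WT and 456 in HET, and those with none 391 and 469. Gabrb2 was at 167.1 and 212.6 CPM in glycinergic nuclei (0.35, 0.25 to 0.44) and at 140.3 and 269 CPM in nuclei without Slc6a5 (0.94, 0.78 to 1.10). In nuclei of neuron.1 alone these ratios were 0.41 and 0.94. Gabrb1 was about as high in WT as in HET in nuclei without Slc6a5, at 688.5 and 681.1 CPM. In glycinergic nuclei it was lower in HET, at 321 and 295.2 CPM. In nuclei of neuron.1 alone it was at 703.8 and 703.9 CPM without Slc6a5 and at 338.3 and 337.4 CPM in glycinergic nuclei. A larger Gabrb2 ratio in the nuclei without Slc6a5 could not be tested with 1 library per genotype.

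The alpha subunit with the most UMIs in a nucleus differed between these classes (plot of leading alpha subunits). Among nuclei with at least 3 alpha UMIs and no tie, Gabra3 led 42.1% of WT and 43.6% of HET glycinergic nuclei, and Gabra2 led 28.6% and 29.8%. In glutamatergic nuclei Gabra2 led 42.0% and 42.5%, Gabra3 33.4% and 30.1%, and Gabra5 15.1% and 14.7%. In inhibitory nuclei without Slc6a5 the shares were less alike between libraries, at median depths of 7518 and 8381 UMIs. Gabra3 led 42.0% in WT (34.3 to 50.0) and 25.9% in HET (20.7 to 31.6), and Gabra2 43.2% and 51.7%. At least 3 alpha UMIs were present in 187 of 391 WT and 319 of 469 HET nuclei, and 162 and 263 had a leader. Gabra3 led 68 nuclei in each library. Its level over the class was not lower in HET, at 131.4 and 142.1 CPM (0.11, −0.07 to 0.30). Astrocytes were led by Gabra2 in 97.1% of WT and 91.7% of HET nuclei, with Gabra4 leading 6 of 208 and 23 of 300. Raw UMIs can favour long genes, so a leader is compared here only between classes or libraries.

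**Figure D5:**
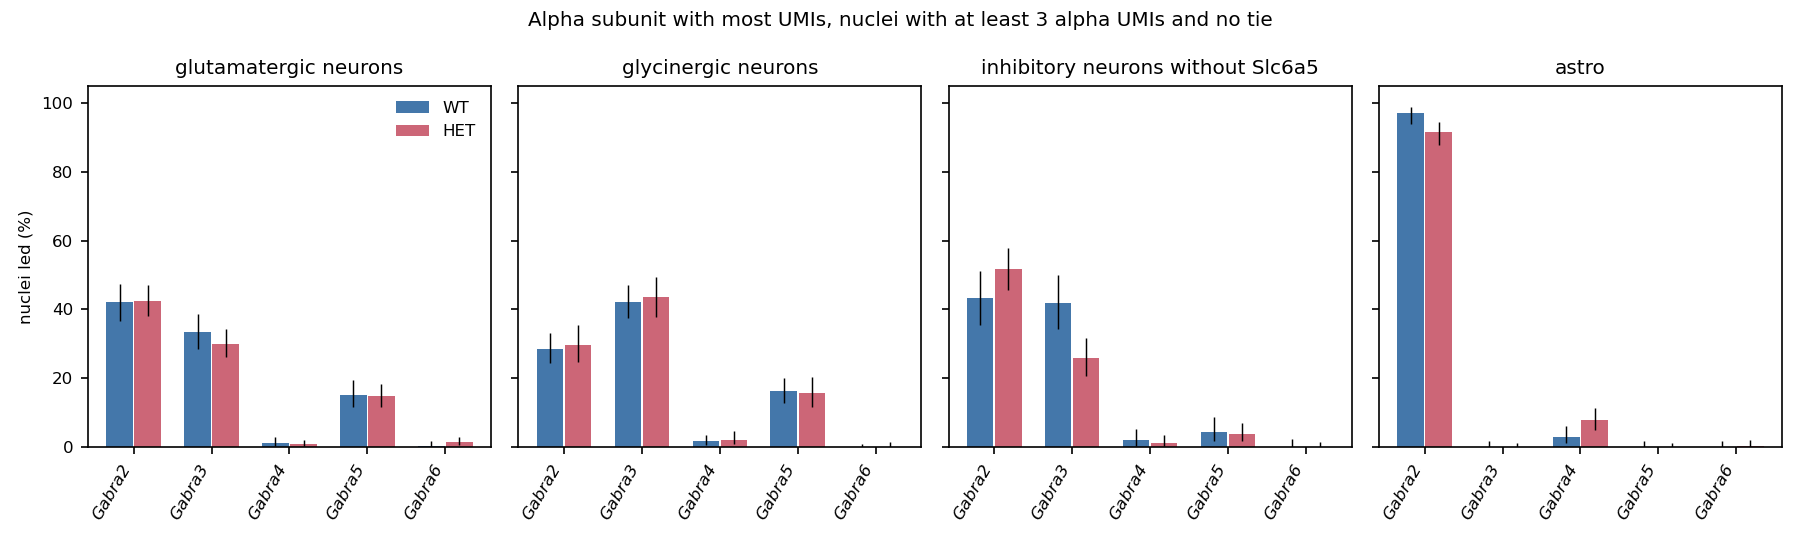
Share of nuclei led by each of 5 alpha subunits (y axis, percent, from 0) in 3 transmitter classes and in astrocytes, WT and HET bars with exact binomial 95% intervals. Gabra2 led 97.1% and 91.7% of astrocytes but 28.6% and 29.8% of glycinergic nuclei.

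Astrocyte and oligodendrocyte nuclei were compared in the same way. In astrocytes the Gabrb1 ratio was 0.28 (0.23 to 0.33), with 5046 UMIs in WT and 7546 in HET. It was 0.28 in subcluster 4 and 0.32 in subcluster 19. In subcluster 26 it was 0.07, with an interval across 0 (−0.11 to 0.24). All 4 neuronal markers were also higher in HET astrocytes, from 0.19 for Snap25 to 0.95 for Rbfox3 (18.5 and 35.7 CPM), and their part in the Gabrb1 ratio was not tested. Gabra2 did not differ beyond counting error (0.08, −0.03 to 0.18), nor did Gabrg1 (−0.25, −0.53 to 0.03) or Gabrb2 (0.22, −0.33 to 0.79). Of the 6 members with enough UMIs none was past the size rule upward, where 10.6% of 13109 genes were, and Gabra5 was past it downward (−0.71, −1.68 to 0.23; 24 and 18 UMIs), where 22.7% were. Gabra4, the remaining chromosome 5 alpha subunit, was at 76.6 and 113.4 CPM in astrocytes (0.56, 0.28 to 0.85).

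In oligodendrocytes Gabrb2 was at 12.7 and 26.1 CPM (1.04, 0.65 to 1.45) and Gabrd at 0.856 and 3.17 CPM, from 5 and 25 UMIs (1.89, 0.48 to 3.63). These were the 2 of 7 members past the size rule, where 12.9% of 14864 genes were, and none was past it downward, where 19.6% were. Markers of neurons moved with them. All 4 neuronal markers were higher in HET oligodendrocytes, among them Rbfox3 at 15.4 and 39.3 CPM and Snap25 at 120.5 and 145.7 CPM, as were 3 of 4 granule cell markers, among them Fat2 with 4 and 38 UMIs. Their part in the Gabrb2 and Gabrd ratios was not tested. The endo cluster, with 6 and 29 Gabrb2 UMIs, also had neuronal Meg3 at 1141 and 2610 CPM. On endo nuclei where both labels matched, Gabrb2 had 5 and 5 UMIs, too few for a ratio.

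The rest of the family and its partners were read from fixed lists. Of 12 other subunits 11 had enough UMIs, with a median log2 ratio of 0.26, and 4 were past the size rule upward: Gabra6 (2.96), Gabrr1 (1.89), Gabrr3 (1.62) and Gabrr2 (0.69), the last 3 encoding rho subunits of GABA-gated channels. None was past it downward. Over all genes 12.8% were past it upward. Within the granule-like cluster Gabra6 had a ratio of 0.09 (−0.31 to 0.52), beside its 42 WT and 332 HET nuclei. Gabrr1 rested on 10 and 35 UMIs, Gabrr3 on 9 and 26, and Gabrr2 was at 0.33 (−0.10 to 0.76) in oligodendrocytes. Gabra4 (0.06) and Gabrg3 (−0.08) had ratios near 0. Of 21 scaffold and trafficking genes 2 (9.52%) were past the rule upward and 4 (19%) downward, with a median of 0.06, near or below the 12.8% and 19.1% of all genes. Gphn, which encodes the inhibitory scaffold gephyrin, was at 853.2 and 993.8 CPM (0.22). The highest ratios were those of Insyn2a (1.24), Plcl1 (0.68) and Plcl2 (0.27), which within neuron.1 were 0.49, 0.22 and 0.20. Within astrocytes these 3 were at 1.36, 0.14 and 0.58, and within oligodendrocytes at 1.21, 0.52 and 0.82. The lowest ratios were those of Gabarap (−0.88), Gabarapl2 (−0.65) and Gabarapl1 (−0.60), the GABA receptor associated protein family. Nlgn2, an adhesion protein of inhibitory synapses, was also past the rule downward (−0.54). None of 6 GABA-B receptor genes was past the rule in either direction, with Gabbr2 at 0.42 and Gabbr1 at −0.13.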

How the data were processed

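Nuclei from the brainstem of 1 WT and 1 HET mouse were sequenced by the authors with the 10x 3′ method. The submitters' processing notes name Cell Ranger, the mm10 reference and Seurat 4.1. Per the study's methods, nuclei with few genes or many mitochondrial reads were removed and the rest clustered after SCTransform. The deposited table holds whole-number UMI counts per gene and nucleus, as the authors' counting gave them. The deposited metadata hold counts, a percent of mitochondrial and of ribosomal transcripts, a doublet score and the authors' cluster labels. The version of Cell Ranger and the use of strand and introns in counting are not given in the sources used here.

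For each cluster of each library a gene's UMIs were added up and divided by the UMIs of all genes (CPM). Intervals are exact: Poisson for CPM, conditional binomial for ratios and Clopper-Pearson for shares, at 95%. Ratios needed at least 20 UMIs over both libraries and 30 nuclei in each, and a log2 ratio of at least 0.5 in size was counted as past the rule. No p-value was computed. Nuclei were left in whatever their doublet score, and leaving out the 5% with the highest was an alternative, with other scalings, weights and minimum UMIs. Named genes were all 7 members, the other subunits (some genes are not reported here), the 3 highest and 3 lowest scaffold ratios with Gphn, and the 3 genes most like each member. Nlgn2, Gabbr1 and Gabbr2 and the examples of markers were named after their values were seen. The members and lists were chosen with earlier results of these data known. Intervals were tested on simulated data. Python 3.11.15, numpy 2.4.6, pandas 2.3.3 and scipy 1.17.1 were used.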

Additional observations from a re-analysis of the deposited data

Results flagged for a closer look

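Some members had ratios of opposite sign in different places, each with a counting interval clear of 0, and the differences between places were not tested because each genotype had 1 library. Gabra3 had a log2 ratio of HET to WT of −0.48 in neuron.4 and 1.74 in the endo cluster, where it rested on 13 and 21 UMIs and neuronal markers were also higher in HET. Gabra5 was at −0.44 in neuron.3 and 0.24 in neuron.2. Gabrb1 was at −0.11 in glutamatergic and 0.13 in inhibitory neurons, and at 0.14 and 0.18 in the nuclei of these classes that belong to neuron.1. Within neuron.1 it was at −0.0039 (−0.08 to 0.07) in glycinergic nuclei, of which there were 693 in WT and 375 in HET. It was at 0.0003 (−0.08 to 0.08) in inhibitory nuclei of neuron.1 without Slc6a5, 380 in WT and 449 in HET. Gabrg1 was at −0.48 in glutamatergic and 0.50 in inhibitory neurons, but at 0.32 in glutamatergic neurons without neuron.6, a cluster high in Gabrg1 that gave the class 25 WT and 0 HET nuclei. The opposite signs of Gabrb1 and Gabrg1 between glutamatergic and inhibitory neurons were not present when nuclei of neuron.1 alone were compared.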

How the results depend on the processing

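Ratios were recomputed under other scalings, weights, minimum counts and size rules. Equal weights are alike in both libraries and follow the nuclei of each cluster or subcluster over both libraries together. Choices made after seeing the data were equal subcluster weights in neuron.1 and transmitter classes limited to neuron.1 or without neuron.6. Gabrb2 stayed above 0 in each of these settings, from 0.54 to 0.73 over all nuclei and from 0.56 to 0.68 in neuron.1. Gabrd over all nuclei ran from 0.41 to 0.99. Gabra5 over all nuclei changed sign from −0.07 to 0.034 when ratios were centred on the median gene and to 0.032 with equal cluster weights. In glutamatergic neurons the ratios of Gabra5, Gabrb1 and Gabrg1 changed sign to 0.0011, 0.14 and 0.21 in nuclei of neuron.1 alone, and that of Gabrg1 to 0.32 without neuron.6. In the same class Gabra2 and Gabra3 were each at −0.08 with an interval across 0. They also changed sign, to 0.28 and 0.14, in nuclei of neuron.1 alone. Centring moved the members' median from 0.11 to 0.21 over all nuclei and from 0.24 to 0.33 in neuron.1, as the median gene stood at −0.10 in both and at −0.04 in astrocytes and −0.10 in oligodendrocytes. Equal cluster weights gave a median of 0.31 over all nuclei and 1 member, Gabrb2, past the rule upward in place of 2, with Gabrd at 0.41. A minimum of 200 UMIs gave a median of 0.34 in neuron.1, 0 members lower in astrocytes in place of 1, and 1 higher in oligodendrocytes in place of 2. Equal subcluster weights gave a median of 0.18 and 1 member higher in neuron.1. A size rule of 0.25 gave 1 higher and 2 lower in astrocytes, and 4 higher and 1 lower in oligodendrocytes. The mean of CPM over nuclei gave 4 higher in oligodendrocytes. Of 319 values recomputed, 256 stayed within their counting interval, within 1.5 times a count or among the 3 genes most alike. Another 57 did not, and 6 changed sign from a ratio whose counting interval was clear of 0. Sign changes of ratios with an interval across 0 are held in the 256 or the 57. Depth limits Gabrd most, and counting intervals leave out the spread between animals. No paired analysis was possible because each genotype had 1 library and no test was run.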
